A study of Mus musculus with 6 samples.

Results

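Inhibitory interneurons are followed here through 8 genes, read as the rows of 6 hippocampal RNA-seq libraries whose Ensembl identifiers map to Gad1, Gad2, Slc32a1, Pvalb, Calb2, Reln, Lhx6 and Dlx1. They were picked by symbol for their roles in GABA synthesis, vesicle loading and interneuron identity, with neuropeptides left out. All 8 were found among the 29872 genes of each library. RNA came from the hippocampus of C57BL/6J mice, of an age that no source used here gives. In the shHepaCAM group (genotype HepaCAM knockdown, 3 libraries), an adeno-associated virus injected into CA1 on both sides delivered a short hairpin RNA against Hepacam, an adhesion molecule gene of astrocytes. The shControl group (genotype WT, 3 libraries) served as the comparison. The same injection protocol is entered for all 6 libraries, and nothing in it says which vector the controls received. The study asked what hepaCAM knockdown does to gene expression in the hippocampus.

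Interneurons are the GABA-releasing minority among hippocampal neurons and restrain the glutamatergic pyramidal and granule cells. GABA is made from glutamate by GAD67 (Gad1) and GAD65 (Gad2) and is loaded into synaptic vesicles by VGAT (Slc32a1). Parvalbumin (Pvalb) and calretinin (Calb2) are calcium-binding proteins that mark different interneuron classes, and Dlx1 and Lhx6 are homeodomain transcription factors that direct interneuron development. Reelin (Reln) is a secreted matrix protein made by interneurons and by Cajal-Retzius cells, which also hold calretinin.

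The GAD genes are printed by their promoters because Gad1 was the only member whose groups did not overlap, while its paralog Gad2 lay on the other side of 0. The windows run from 250 bases before to 50 bases after an annotated start (RefSeq, GRCm38.p6, + strand for both), at chr2:70561879-70562178 for Gad1 and chr2:22622077-22622376 for Gad2. Capitals mark matches, on either strand and with no overlap between them, to TATAAA, to CCAAT and to GGGCGG.
Gad1: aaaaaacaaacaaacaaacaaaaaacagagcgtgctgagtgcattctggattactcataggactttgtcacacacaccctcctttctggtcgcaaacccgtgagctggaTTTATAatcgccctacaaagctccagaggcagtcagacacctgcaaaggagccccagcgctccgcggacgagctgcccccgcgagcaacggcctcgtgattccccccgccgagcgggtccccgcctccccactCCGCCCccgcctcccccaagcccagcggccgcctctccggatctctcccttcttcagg
Gad2: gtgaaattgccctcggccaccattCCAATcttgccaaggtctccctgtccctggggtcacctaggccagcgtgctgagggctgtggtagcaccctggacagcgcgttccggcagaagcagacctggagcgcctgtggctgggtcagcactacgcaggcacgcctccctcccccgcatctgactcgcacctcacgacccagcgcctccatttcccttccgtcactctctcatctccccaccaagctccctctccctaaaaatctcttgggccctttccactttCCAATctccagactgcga
The Gad1 window held TATAAA on the reverse strand at base 110 and GGGCGG on the reverse strand at base 243, counted from the 5′ end of the window. In the Gad2 window CCAAT stood at bases 25 and 283. Of 32851 windows of 300 bases in the table, 13.6% held TATAAA, 37.4% CCAAT and 35.7% GGGCGG. GC content was 60.0% and 61.3%. The deposited values are on another build (mm39), so gene coordinates are otherwise not given.

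Levels are RPKM, reads scaled to gene length and to library size, as the authors deposited them. Values of a group are given in the order of its replicates 1, 2 and 3. Working the values back to whole reads gave a depth of 14903198 to 17341842 reads per library, and 161 to 5108 reads per member and library. Hepacam was lower in every knockdown library, at 37.3, 33.4 and 35.9 RPKM in the controls and 24.4, 22.6 and 20.9 RPKM after knockdown (log2 change -0.63, SE 0.07, limma adjusted p = 0.00924). It lost the call without shControl replicate 3 (adjusted p = 0.0526). A pair of libraries stood apart in choroid plexus transcripts: the summed level of 8 markers was 117 RPKM in shControl replicate 1 and 70.3 RPKM in shHepaCAM replicate 3, against 2020 to 4886 RPKM in the other 4. None of the 8 markers was at 0 in a library. Values with and without this pair are given below for the members. Whether each library is a mouse of its own is not stated, so p-values rest on a spread among libraries that may be technical. In whole tissue, fewer cells of a type and less RNA per cell cannot be told apart.

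None of the 8 interneuron genes passed the test between knockdown and control hippocampus. In limma on log2(RPKM + 1), 0 of 8 had an adjusted p under 0.05, while 6.07% of all 13864 genes tested did, 4.23% of them higher and 1.84% lower after knockdown. At an unadjusted p under 0.05 the count was 1, Gad1. Groups did not overlap for 1 member, again Gad1, and for 31.5% of all genes tested. Each of the 16 alternatives run also called 0 members, limma-voom on whole reads among them. Of the 8 log2 changes 3 lay above 0 and 5 below, while 60.4% of all genes tested lay above 0. The median of the 8 was -0.07, beside a median of 0.05 over all genes tested. For 7 of the 8 the 95% interval of the change of RPKM + 1 lay within 1.5-fold in either direction (0.58 on the log2 scale). Calb2 was the exception. In limma-voom on whole reads the interval of Lhx6 also passed that bound, at -0.15 to 0.60. A missed threshold does not show that levels were equal, and adding 1 to RPKM understates changes of low genes such as Reln and Lhx6.

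**Figure D1:**
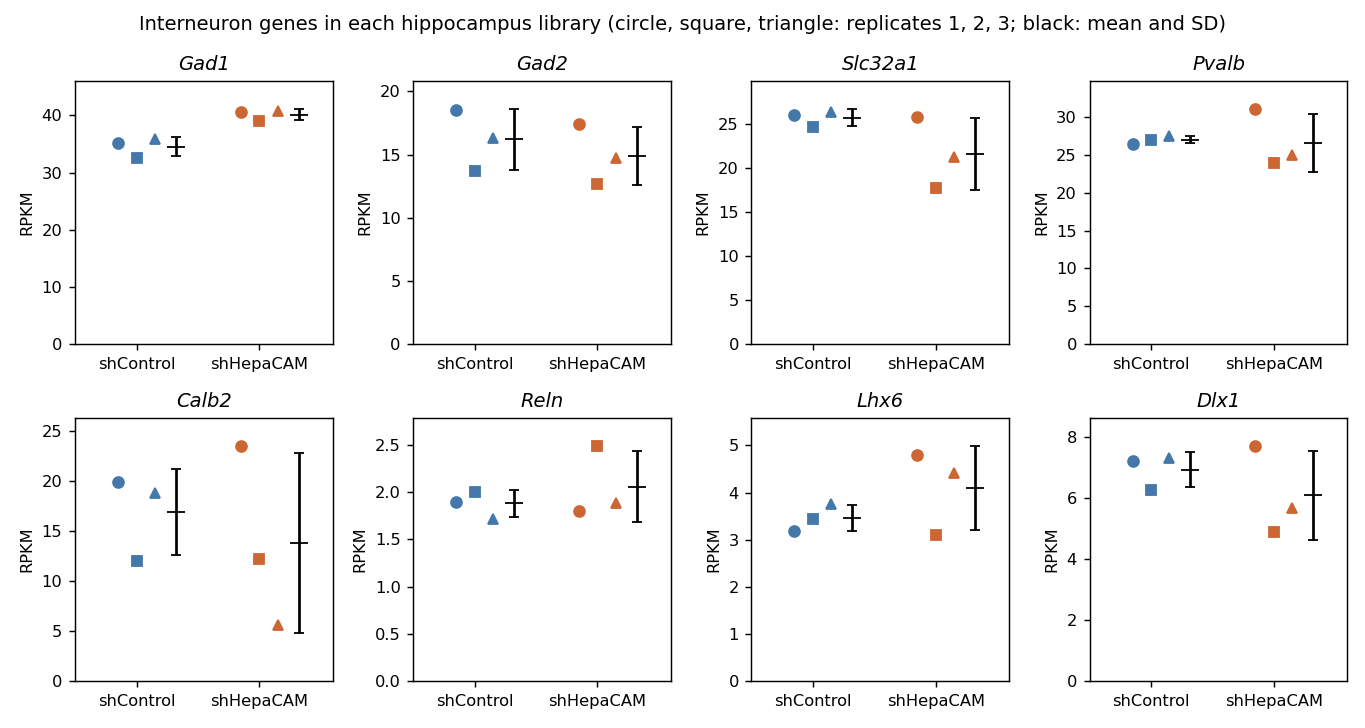
RPKM of the 8 interneuron genes in each library, on a linear axis from 0 in each panel. Blue points are the 3 shControl and orange points the 3 shHepaCAM libraries (circle, square and triangle for replicates 1, 2 and 3), and black bars give mean and SD. Groups separate for Gad1 alone, from 32.6 to 35.8 RPKM against 39.0 to 40.8 RPKM, and Calb2 spreads most.

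Both GABA-synthesising enzymes were well detected. Gad1 stood at 35.1, 32.6 and 35.8 RPKM in the controls, against 40.5, 39.0 and 40.8 RPKM after knockdown. Every knockdown library lay above every control library, a separation seen upward in 20.9% of all genes tested. The means were 34.5 ± 1.69 and 40.1 ± 0.971 RPKM (SD, n = 3 each), 16.1% apart. The log2 change of 0.21 (SE 0.06, 95% interval 0.07 to 0.35) missed the threshold in limma (adjusted p = 0.082). Adjusted p-values ran from 0.0684 to 0.343 over the alternatives, all with a change above 0. For Gad1 by itself the exact permutation p was 0.1 (two-sided), the smallest that 3 libraries against 3 allow. Gad1os, an antisense transcript that overlaps Gad1, had 18 reads summed over controls and 35 after knockdown, where Gad1 had 12995 and 14801. Which strand was counted is not stated, so reads of the pair cannot be told apart.

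Gad2, whose enzyme makes GABA mainly at nerve terminals, did not separate the groups. It was at 18.5, 13.7 and 16.3 RPKM in the controls, against 17.4, 12.7 and 14.7 RPKM after knockdown. In both groups replicate 1 was high and replicate 2 low, and the ranges overlapped. The log2 change was -0.11 (SE 0.14, 95% interval -0.43 to 0.21, limma adjusted p = 0.664).

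Slc32a1, the vesicular GABA transporter, was low in 2 of the 3 knockdown libraries. It measured 26.0, 24.6 and 26.4 RPKM in the controls, against 25.8, 17.7 and 21.2 RPKM after knockdown. Knockdown replicate 1 lay within the control range and the other two below it. The log2 change was -0.25 (SE 0.12, 95% interval -0.55 to 0.04, limma adjusted p = 0.262), -0.13 without shHepaCAM replicate 2 and -0.39 without shHepaCAM replicate 1 (adjusted p = 0.0607). On whole reads in limma-voom the change of Slc32a1 was -0.27 with a 95% interval of -0.54 to 0.01 (adjusted p = 0.218).

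Pvalb, the marker of fast-spiking basket and axo-axonic cells, had nearly equal group means. Its levels were 26.4, 27.0 and 27.5 RPKM in the controls, against 31.0, 23.9 and 25.0 RPKM after knockdown. The 3 controls fell inside the range of the 3 knockdown libraries. The log2 change was -0.03 (SE 0.10, 95% interval -0.25 to 0.20, limma adjusted p = 0.887), and it turned to 0.04 without shHepaCAM replicate 2.

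Calb2, encoding calretinin, was the most variable member. It stood at 19.9, 12.0 and 18.8 RPKM in the controls, against 23.5, 12.2 and 5.64 RPKM after knockdown. The highest and the lowest library, 4.16-fold apart, were both knockdown libraries. The log2 change of -0.44 (SE 0.44, 95% interval -1.47 to 0.58, limma adjusted p = 0.573) rested on shHepaCAM replicate 3, and was 0.03 without it. The change of Calb2 was 0.16 without the choroid-plexus-low pair, which held the lowest Calb2 level (shHepaCAM replicate 3) and the highest of the controls (shControl replicate 1). Calb2 had 161 reads in shHepaCAM replicate 3 and 647 in shHepaCAM replicate 1, and counting error alone gives a coefficient of variation of 5.11% at the group's mean.

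Reln, the gene of the secreted protein Reelin, was the lowest member per length. It was at 1.90, 2.00 and 1.72 RPKM in the controls, against 1.80, 2.49 and 1.88 RPKM after knockdown. Knockdown replicate 2 was high and the other two lay within the control range. The log2 change was 0.08 (SE 0.12, 95% interval -0.20 to 0.36, limma adjusted p = 0.716) and -0.02 without shHepaCAM replicate 2 or with quantile normalization. Its exon length of 23738 bases still gave 609 to 953 reads per library.

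The transcription factors differed in the sign of their change, each with overlapping groups. Lhx6, needed by interneurons born in the medial ganglionic eminence, was at 3.19, 3.44 and 3.76 RPKM in the controls, against 4.79, 3.10 and 4.41 RPKM after knockdown. The knockdown libraries included both the highest and the lowest value (log2 change 0.18, SE 0.14, 95% interval -0.15 to 0.51, limma adjusted p = 0.475). Dlx1 was at 7.22, 6.27 and 7.30 RPKM in the controls, against 7.71, 4.88 and 5.68 RPKM after knockdown. Again shHepaCAM replicate 1 was highest and shHepaCAM replicate 2 lowest (log2 change -0.18, SE 0.15, 95% interval -0.52 to 0.16, limma adjusted p = 0.491). Dlx1as, an antisense transcript overlapping Dlx1, had 176 reads summed over controls and 157 after knockdown, where Dlx1 had 1841 and 1585.

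Several members shared the library of their lowest or highest level. Gad2, Slc32a1, Pvalb, Lhx6 and Dlx1 had their lowest level in shHepaCAM replicate 2, and Pvalb, Calb2, Lhx6 and Dlx1 their highest in shHepaCAM replicate 1. Lowest levels in shHepaCAM replicate 2 were not particular to the members. Slc17a7, Camk2a, Snap25 and Tubb3, not specific to interneurons, were also lowest there (196, 520, 113 and 72.6 RPKM), while Rbfox3 was highest there (69.1 RPKM). The share over all genes was not computed. The summed level of the 8 members was 138, 122 and 138 RPKM in the controls and 152, 116 and 119 RPKM after knockdown, so the knockdown sums lay on both sides of the control range. For 7 of 8 members the coefficient of variation was larger among knockdown than among control libraries, as it was for 63.7% of all genes tested. That of Slc32a1 was 3.76% in control and 19.0% in knockdown libraries, and that of Gad1, the exception, 4.89% and 2.42%. With the pair low in choroid plexus transcripts left out, still 0 members passed in limma, and 104 genes did over all genes tested. The log2 change was then 0.21 for Gad1, -0.01 for Gad2, -0.24 for Slc32a1 and -0.00 for Pvalb. It was 0.16 for Calb2, 0.13 for Reln, 0.08 for Lhx6 and -0.12 for Dlx1.

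Ordered by level per length in control libraries, Gad1 was highest at 34.5 RPKM, followed by Pvalb at 27.0, Slc32a1 at 25.7, Calb2 at 16.9, Gad2 at 16.2, Dlx1 at 6.93, Lhx6 at 3.46 and Reln at 1.88 RPKM. Calb2 and Gad2 were the only neighbours in this order whose control ranges overlapped. In knockdown libraries the ranges of Pvalb and Slc32a1, of Slc32a1 and Calb2, and of Calb2 and Gad2 overlapped.

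**Figure D2:**
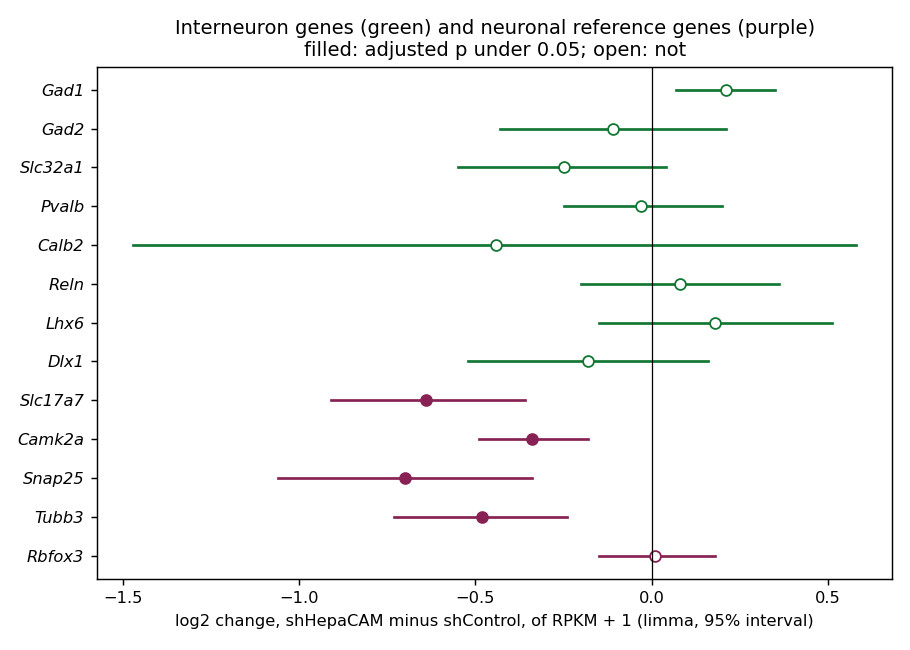
Log2 change of RPKM + 1, shHepaCAM minus shControl, with limma 95% intervals, for the 8 interneuron genes (green) and 5 neuronal reference genes (purple); filled points passed an adjusted p of 0.05. All 8 green points are open, between -0.44 and 0.21, and 4 of the purple points are filled, between -0.70 and -0.34.

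Neuronal genes that are not specific to interneurons included some that fell. Of 8 glutamatergic markers 2 fell and 0 rose, among them Slc17a7, the vesicular glutamate transporter VGLUT1, which averaged 355 ± 16.0 RPKM in the controls and 229 ± 37.5 RPKM after knockdown (SD, n = 3 each), -0.64 on the log2 scale (SE 0.12; limma adjusted p = 0.0289). Camk2a, a kinase of excitatory synapses, was the other (log2 change -0.34, adjusted p = 0.0348), and Nrgn, a calmodulin-binding protein and the most abundant of the list, was at 0.20 (adjusted p = 0.231). Of 9 pan-neuronal markers, the vesicle fusion gene Snap25 and the tubulin Tubb3 fell by 0.70 and 0.48 and 0 rose, while Rbfox3, the nuclear antigen NeuN, was at 0.01 (limma adjusted p = 0.922). The medians of these lists were -0.11 and -0.18. These calls were lost with single libraries left out: Slc17a7 had adjusted p-values of 0.0742, 0.104 and 0.117 without shControl replicates 1, 2 and 3 and 0.0780 without shHepaCAM replicate 3, and neither Camk2a, Snap25 nor Tubb3 passed without any 1 control library or without shHepaCAM replicate 3. Camk2a also missed without shHepaCAM replicate 1 (adjusted p = 0.0524), Tubb3 without shHepaCAM replicate 2 (0.0831), and Snap25 with scaling to the median gene (0.0515).

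Set against Slc17a7 within each library, the GABA genes had ratios that did not overlap between the groups and were higher after knockdown. The ratio of Slc32a1 to Slc17a7, inhibitory to excitatory vesicular transporter, was 0.0767, 0.0695 and 0.0710 in the controls and 0.0957, 0.0900 and 0.0957 after knockdown. All 3 knockdown ratios lay above all 3 control ratios (log2 difference 0.37; exact two-sided permutation p = 0.1, the smallest possible, and 0.133 adjusted over the 4 ratios computed). The ratios of Gad1 and Gad2 to Slc17a7 separated likewise, with log2 differences of 0.86 and 0.52 and the same p-values. This is the common pattern: against Slc17a7, 83.1% of the other genes tested separated upward, with a median log2 difference of 0.70. Against Rbfox3 in place of Slc17a7 the differences were -0.28 for Slc32a1, -0.13 for Gad2 and 0.20 for Gad1. These ratios were chosen after the data were seen.

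**Figure D3:**
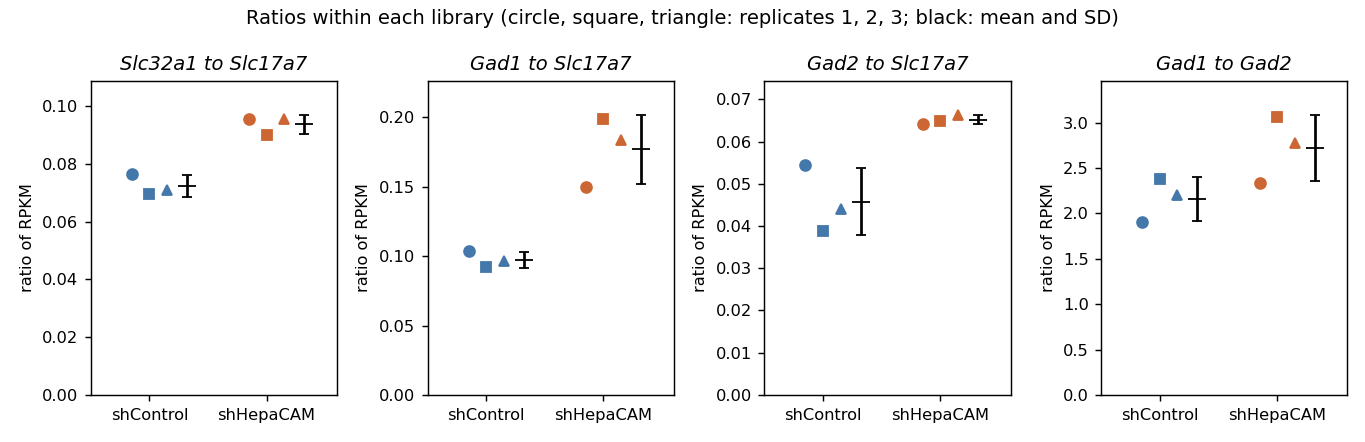
Ratios of RPKM within each library for Slc32a1, Gad1 and Gad2 over Slc17a7 and for Gad1 over Gad2, on linear axes from 0; blue points are shControl, orange points shHepaCAM (circle, square and triangle for replicates 1, 2 and 3), black bars mean and SD. Groups separate in the 3 ratios to Slc17a7 and overlap in Gad1 over Gad2.

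The ratio of Gad1 to Gad2 was 1.90, 2.38 and 2.20 in the controls and 2.33, 3.06 and 2.77 after knockdown. The groups overlapped, since shHepaCAM replicate 1 lay below shControl replicate 2. The log2 difference of the ratio was 0.33 (exact two-sided permutation p = 0.2, also 0.2 adjusted over the 4 ratios).

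Beyond the members, 10 lists held 93 genes of GABA handling, interneuron lineage and subtypes, inhibitory synapses, perineuronal nets, Reelin signalling and Cajal-Retzius cells, of which 84 were tested. In limma 2 rose, 2 fell and 80 did not pass, 4.76% called beside the 6.07% of all genes, and the median log2 change was -0.08.

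**Figure D4:**
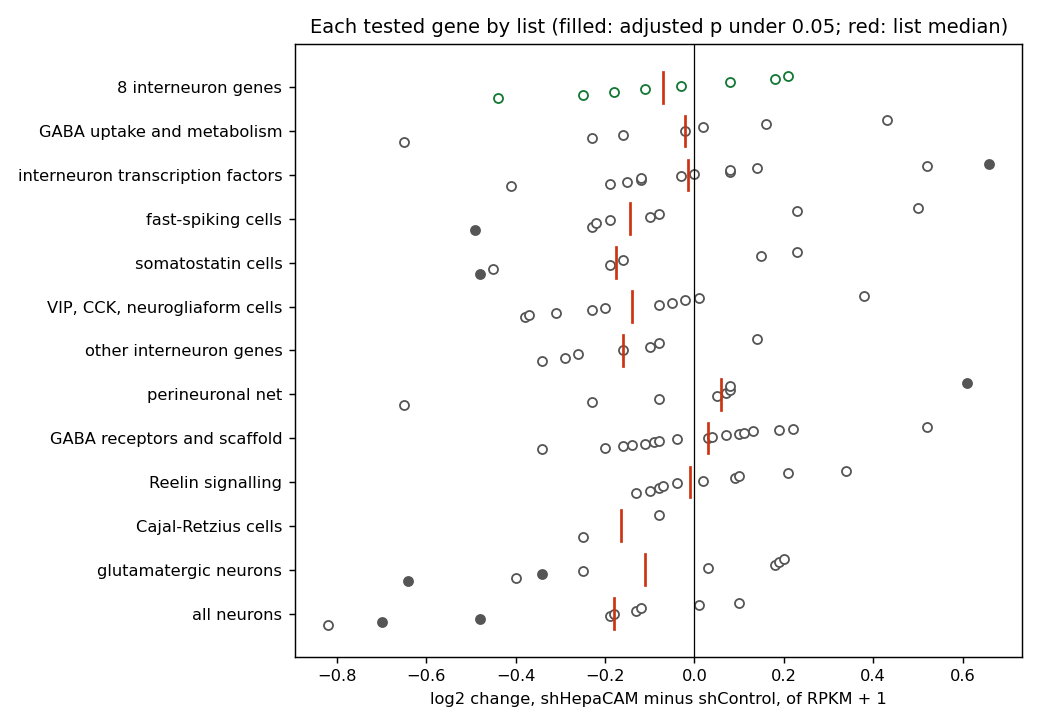
Log2 change of RPKM + 1, shHepaCAM minus shControl, of every tested gene in each list; filled points passed an adjusted p of 0.05, red bars are list medians, and height within a list has no meaning. The 10 lists from GABA uptake and metabolism to Cajal-Retzius cells hold 4 filled points, and their medians lie between -0.18 and 0.06. Not all of their genes are specific to inhibitory neurons.

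Of 7 genes of GABA uptake and metabolism none passed (median -0.02). Slc6a11, the GABA transporter GAT3 of astrocytes, was at -0.65 on the log2 scale (limma adjusted p = 0.117). Of 12 tested interneuron transcription factors 1 rose and 0 fell (median -0.02).

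Among 8 genes of fast-spiking interneurons, 1 fell and 0 rose (median -0.15), and 2 lay above 0. Kcnc2, a Kv3 potassium channel subunit that lets these cells fire fast, stood at 11.8, 11.8 and 11.2 RPKM in the controls, against 8.45, 7.14 and 8.40 RPKM after knockdown. The groups did not overlap (log2 change -0.49, SE 0.08, limma adjusted p = 0.0202). Kcnc2 missed the threshold without any 1 control library, with adjusted p-values of 0.0683, 0.0873 and 0.0824 without shControl replicates 1, 2 and 3. Pthlh was higher in every knockdown library, averaging 1.09 RPKM in the controls and 1.97 RPKM after knockdown, on 22 to 59 reads per library. Its log2 change of 0.50 missed the threshold (limma adjusted p = 0.0663). Cox6a2 was at 0.23 (limma adjusted p = 0.277).

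Among 6 tested genes of somatostatin interneurons, 1 fell and 0 rose (median -0.18), and 2 lay above 0. Sst itself was at -0.16 (limma adjusted p = 0.608). Those above 0 were Pnoc at 0.15 and Cort at 0.23 (limma adjusted p = 0.513 and 0.652). Grin3a, an NMDA receptor subunit, was at 2.13, 2.32 and 2.57 RPKM in the controls, against 1.51, 1.43 and 1.26 RPKM after knockdown. Its call stood near the threshold (log2 change -0.48, SE 0.11, limma adjusted p = 0.0475) and was lost without any 1 of the 6 libraries, with adjusted p-values of 0.0610 to 0.174. Of 10 genes of VIP, CCK and neurogliaform interneurons none passed (median -0.14); Lamp5 had a log2 change of -0.20 (adjusted p = 0.123) and the neuropeptide gene Npy of 0.38 (limma adjusted p = 0.173; 0.0359 without shHepaCAM replicate 2). Of 7 other genes enriched across interneurons none passed (median -0.16). The neurexin ligand Nxph1 was at -0.29 (adjusted p = 0.160) and the vesicle protein gene Rab3b at -0.34 (adjusted p = 0.297; 0.0417 without shHepaCAM replicate 1).

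Of 8 genes of the perineuronal net, the matrix around many parvalbumin cells, 1 rose and 0 fell (median 0.06), and 5 lay above 0. Hapln4 was lower in every knockdown library, averaging 31.5 RPKM in the controls and 20.2 RPKM after knockdown. Its log2 change of -0.65 missed the threshold (limma adjusted p = 0.086) but passed in limma-voom (-0.68, adjusted p = 0.0437). Acan, the core proteoglycan aggrecan, was at 0.853, 0.749 and 0.665 RPKM in the controls, against 1.31, 1.83 and 1.94 RPKM after knockdown. The groups separated, at 0.61 on the log2 scale (SE 0.14; limma adjusted p = 0.0493). The call of Acan was lost in 11 of 15 alternatives, among them quantile normalization, scaling to the median gene, and the fits lacking shControl replicates 1, 2 or 3 or shHepaCAM replicates 2 or 3 (adjusted p-values of 0.103 to 0.161).

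None of 17 GABA receptor and scaffold genes passed (median 0.03). Gabrd, the delta subunit of extrasynaptic GABA-A receptors, was at 0.52 (limma adjusted p = 0.0645; 0.0380 without shHepaCAM replicate 1, 0.0435 with a filter at 5 RPKM and 0.0445 in limma-voom), and Gphn, the gephyrin scaffold, at 0.22 (adjusted p = 0.0717). None of 10 genes of Reelin signalling passed (median -0.01). Among these Rapgef1, a guanine nucleotide exchange factor, was at 0.34 (adjusted p = 0.0508; 0.0302 in the lowest of its alternatives), and Fyn, a kinase that phosphorylates the Reelin adaptor, at 0.21 (adjusted p = 0.1).

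Only 2 of 6 Cajal-Retzius markers reached a mean of 1 RPKM and were tested, and neither passed. Trp73 was at -0.25 (limma adjusted p = 0.391) and Ndnf, also a neurogliaform gene and the more abundant, at -0.08 (adjusted p = 0.770). Their summed level over 6 markers was 4.27 to 4.43 RPKM in control and 3.13 to 4.60 RPKM in knockdown libraries, with none at 0. Calb2 and Reln are shared between these cells and interneurons, and which cells of the tissue gave their reads was not tested.

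Neighbouring regions rich in GABA neurons or calretinin were looked at by their markers. Of 7 tested striatal markers 1 rose and 0 fell: Penk, a neuropeptide precursor also made by hippocampal neurons, was at 1.21 (limma adjusted p = 0.0356; lost without shControl replicates 2 or 3 and without shHepaCAM replicates 2 or 3). Drd1, a dopamine receptor, stood at 0.548, 0.826 and 0.888 RPKM in the controls, against 1.73, 4.80 and 2.59 RPKM after knockdown. Its groups did not overlap, and it narrowly missed the threshold (1.14, limma adjusted p = 0.0515) but passed in limma-voom (1.91, adjusted p = 0.0346). Ppp1r1b, the most abundant of the list, was at -0.10 (adjusted p = 0.848). Drd2 and Adora2a were at -0.32 and -0.13 (limma adjusted p = 0.448 and 0.670), and 3 of the 7 lay above 0. The summed level of the 8 striatal markers was 50.9 to 68.6 RPKM in control and 67.2 to 94.4 RPKM in knockdown libraries, none at 0. Penk made up part of these sums, with 10.4 to 18.5 RPKM in control and 26.4 to 45.5 RPKM in knockdown libraries. Of 5 tested thalamus and habenula markers none passed: Tac2 was at 0.65, Tcf7l2 at -0.20 and Prkcd at 0.04 (adjusted p = 0.181, 0.662 and 0.877). Their sum over 8 markers was 12.4 to 20.3 RPKM in control and 13.3 to 20.6 RPKM in knockdown libraries. The habenular marker Pou4f1 had 99 reads in shControl replicate 1 and 0 to 7 in the other 5 libraries, Gpr151 37 against 7 to 18, and Tcf7l2 299 against 85 to 181. Prkcd was also highest in that library, at 6.33 RPKM, while Rora was lowest there, at 1.75 RPKM. Lef1, Tac2 and Zic1 were at 0.645, 2.42 and 4.63 RPKM there, below highs of 0.74, 4.59 and 7.17 RPKM elsewhere. The same library, shControl replicate 1, had the highest Gad2 of all 6 and the highest Calb2 of the controls. Without it the log2 change of Gad2 was -0.01 and that of Calb2 -0.32. The part of these regions in the members' levels was not tested.

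All 6 microglia markers lay higher after knockdown, with 4 called in limma. Their summed level was 258 to 304 RPKM in control and 488 to 584 RPKM in knockdown libraries, with none at 0, and their part in the members' levels was not tested. The called markers were Ctss, C1qa, Cx3cr1 and Csf1r, at log2 changes from 0.51 for Csf1r to 1.01 for Ctss. Of these Ctss passed in all 16 alternatives. C1qa missed the threshold without shControl replicate 2 or 3 (0.0585 and 0.0606), and Cx3cr1 and Csf1r missed it without shControl replicates 2 or 3 or shHepaCAM replicates 2 or 3 (0.0599 to 0.0927). Of 6 astrocyte markers Slc1a2 fell by 0.37 (limma adjusted p = 0.0181), a call lost without shControl replicate 1, 2 or 3 (0.0683, 0.0858 and 0.0738). Gfap, the most abundant, was at 0.29 (adjusted p = 0.224). None of 6 oligodendrocyte markers passed (median 0.24), with Cnp, Mog and Mbp at 0.34, 0.24 and 0.30. None of 8 choroid plexus markers passed; Otx2, Kl and Ttr were at -0.86, -0.58 and -1.08 with adjusted p-values of 0.498, 0.670 and 0.790, and Otx2 passed without the choroid-plexus-low pair (-0.99, limma adjusted p = 0.0311).

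The genes most like the GABA genes across the 6 libraries were ranked by Pearson r with the mean of centred log2(RPKM + 1) of Gad1, Gad2 and Slc32a1. That mean was highest in shHepaCAM replicate 1 (0.14) and lowest in shHepaCAM replicate 2 (-0.19). Among 12227 protein-coding genes, G3bp2 had the highest value (0.992), followed by Kcns3, a potassium channel subunit of fast-spiking interneurons (0.976), Rab4a, Ccdc92 and Map7d2 (0.965 for the last pair). These are descriptions over 6 libraries, picked as the highest of many, and none of the 5 passed in limma (adjusted p-values of 0.569 to 0.845, with log2 changes from -0.09 to -0.02).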

How the data were processed

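RNA-seq of hippocampus gave 6 libraries, grouped and numbered from their titles. The authors deposited 1 table per library, taken here as RPKM: no label or header names the unit, and the values behave as reads per length and depth. Per the submitters' processing notes, TopHat2 2.0.12, Bowtie2 2.0.6 and build mm39 were used; no source used here gives the counter, annotation or strand. Symbols were found for 29805 of 29872 identifiers.

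With GENCODE M21 exon lengths (names and lengths only), RPKM came out as whole reads within 0.01 in every library for 27390 genes, all 8 members among them, and by a step of their own for 2403 more (99.7% in all). Log2(RPKM + 1) of genes averaging 1 RPKM or more was tested in limma 3.58.1 (R 4.3.3, trended variance), with Benjamini-Hochberg adjustment over all genes tested and a threshold of 0.05. The limma fit was run on simulated counts with the same dispersion for every gene. That run does not measure error or power at the spread of these libraries. Intervals are at the 95% level and not adjusted. Figures used matplotlib 3.10.9 (Python 3.11.15).

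Named were all members, Hepacam, and from each list those called or, where there were none, the 2 of lowest p, plus the most abundant marker of other cells or regions; some genes this rule names are not reported here. Rbfox3, Gad1os, Dlx1as, Pthlh, Cox6a2, Sst, Pnoc, Cort, Hapln4, Drd1, Drd2, Adora2a, Gpr151, Pou4f1, Rora, Lef1 and Zic1 were named after their values were seen. Members and lists were chosen with earlier results of these data known. Alternatives were 2 normalizations, 2 filters, a pseudocount of 0.1, no trend, array weights, a replicate block, limma-voom on whole reads scaled to library totals, and left-out libraries.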

Additional observations from a re-analysis of the deposited data

How the results depend on the processing

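The number of members called was 0 in limma and in all 16 alternatives, and the median member change ran from -0.18 to 0.04. Gad1 and Lhx6 kept a change above 0, and Gad2, Slc32a1 and Dlx1 one below 0, in every alternative in which they were tested; Reln and Lhx6 were not tested with a filter at 5 RPKM. With single libraries left out, Gad1 ran from 0.17 to 0.24, Gad2 from -0.21 to -0.01, Slc32a1 from -0.39 to -0.13, Dlx1 from -0.34 to -0.05 and Lhx6 from 0.08 to 0.33. Likewise Pvalb ran from -0.14 to 0.04, Calb2 from -0.91 to 0.03 and Reln from -0.02 to 0.14. Their signs also turned with array weights (Pvalb, 0.01), without the pair low in choroid plexus transcripts (Calb2, 0.16) and with quantile normalization (Reln, -0.02). Over all genes, the 842 calls became 169 with no filter, 157 with the replicate block, 104 without the pair and 98 to 867 with single libraries left out. Higher and lower calls, 587 and 255, were 390 and 341 with quantile normalization and 336 and 347 with scaling to the median gene. Hepacam stood at -0.54 without the pair (limma adjusted p = 0.0695) and at -0.68 to -0.58 with single libraries left out. Among other genes, leaving out single libraries gave -0.19 to 0.05 for Ndnf, -0.43 to 0.08 for Ppp1r1b, -0.35 to 0.05 for Tcf7l2, -0.09 to 0.11 for Prkcd, -1.60 to -0.26 for Otx2, -1.35 to 0.02 for Kl and -3.07 to 0.98 for Ttr. Without the pair Ndnf was at 0.08 and Tcf7l2 at 0.16, and Prkcd was at -0.05 with quantile normalization and -0.04 with median scaling. The ratios of Slc32a1 and Gad2 turned to -0.28 and -0.13 against Rbfox3. The cause was not tested. No label says that the replicate numbers pair the libraries. Same-numbered libraries deviated with correlations of -0.21, 0.0155 and -0.145, and 0 of 6 correlated best with their own number. With so few libraries this cannot exclude a pairing. The replicate block called 0 members and ended the calls of Kcnc2, Grin3a, Acan, C1qa, Cx3cr1, Csf1r and Slc1a2, among others. Counting error, 1.42% to 6.06% of a member's mean reads, lay below the spread between libraries for all but Pvalb in controls.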
